A study of Mus musculus with 4 samples.

Results

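The replication-dependent histone genes were examined in single bone marrow cells of 5TMM model mice given vehicle or purinostat mesylate (PM). They were taken by symbol alone, as every gene whose symbol begins with Hist1h, Hist2h, Hist3h or Hist4h, which gave 67 of the 32285 genes in the deposited tables. By symbol, 6 members code for linker histone H1, 18 for H2A, 18 for H2B, 12 for H3 and 13 for H4. In GENCODE vM21 on GRCm38, 54 of them lie on chromosome 13 within chr13:21715763-23934851, 10 within chr3:96219865-96270132, 2 within chr11:58948920-58956830, and Hist4h4 alone at chr6:136801553-136804415.

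Core histones H2A, H2B, H3 and H4 form the protein spool of the nucleosome, and H1 binds the DNA where it enters and leaves that spool. The replication-dependent genes supply these proteins while DNA is being copied, and their transcription peaks in S phase. Their mRNAs normally end in a conserved stem-loop, bound by the stem-loop binding protein Slbp, in place of a poly(A) tail, although a number of the genes can also give a longer, polyadenylated transcript, among others in cells that have left the cell cycle. Histone deacetylases (HDACs) remove acetyl groups from histone tails, and PM is a hydroxamic acid that inhibits class I and class IIb HDACs.

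In this model, 5TGM1-luc cells, a luciferase-carrying line of mouse myeloma cells, are injected by vein into C57BL/KawRij mice at 6 weeks of age, and treatment begins 3 weeks later. All 4 mice used here carried the tumor: 2 received vehicle, 2 received 10 mg/kg PM, and total marrow was taken 24 h after treatment and freed of red blood cells by lysis. Each mouse gave 1 droplet library primed at the poly(A) 3′ end, so a member is counted here only through molecules that such priming caught, and the share of its molecules caught was not measured. The libraries held 8242 to 13848 cell barcodes and 69828595 to 109447030 unique molecular identifiers (UMIs, each a captured molecule), and 7826 to 13387 cells per library were kept.

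Clusters of cells were named from marker genes, and cluster 15, led by Mpo, Ctsg, Prtn3 and Elane, which was left unnamed, is counted among the cell types by its number. Hematopoietic stem and progenitor cells are given as HSPC, dendritic cells as DC and CXCL12-abundant reticular cells as CAR. Within each cell type, a cell was called cycling when it held at least 2 UMIs of Mki67 and Top2a together, a pair of genes of dividing cells that are not members. Between 22.4% and 24.8% of the kept cells of a library were cycling by this measure. Cycling cells were also the more deeply sequenced, with a median of 16577 to 18480 UMIs per library against 3572 to 4790 in non-cycling cells, and the part of depth in the split was not tested. Cell barcodes shared between any pair of libraries numbered 18 to 41. The second vehicle library stood apart in the members' level, as described below, so the members' sums and calls in cycling cells are given with and without it.

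The stem-loop is shown here because the end of a member's gene model, relative to it, goes with how the member's UMIs were spread over cycling and non-cycling cells. It was searched in the GENCODE transcripts as a 16-base hairpin, with 6 paired bases on each side of a 4-base loop. It was found in the models of 46 members, as 8 different sequences. The commonest was shared by 26 members of the H1, H2A, H2B and H3 classes, and the next by 7 members, all of class H4. In the following lines the capitals mark the hairpin, the lower-case letters its neighboring bases in the transcript, and the number of bases that the model runs on past the hairpin is given by the text after them.
Hist1h2ap: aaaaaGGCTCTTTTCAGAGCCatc
Hist1h3c: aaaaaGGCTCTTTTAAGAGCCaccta
Hist1h1c: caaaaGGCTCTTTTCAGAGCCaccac
Hist1h4i: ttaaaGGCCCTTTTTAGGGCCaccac
Hist4h4: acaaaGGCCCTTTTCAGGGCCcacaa
Hist3h2a: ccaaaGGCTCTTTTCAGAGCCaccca

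The model of Hist1h2ap, an H2A gene at chr13:21833026-21833507 on the minus strand, ends 3 bases after its hairpin, and that of Hist1h3c, an H3 gene at chr13:23744973-23745602 on the minus strand, 74 bases after it. The model of Hist1h1c, which codes for an H1 variant (chr13:23738808-23740367, plus strand), runs on for 840 bases, and that of the H4 gene Hist1h4i (chr13:22040636-22041362, minus strand) for 330 bases. The models of Hist4h4, on chromosome 6, and of Hist3h2a, an H2A gene on chromosome 11, run on for 2445 and 1643 bases. Members were put in 3 groups by this distance. Of the 46, 23 had models ending within 100 bases of the hairpin and 23 had models that ran on for 100 bases or more, called extended below, and in the other 21 members no hairpin was found in the model. Bases past the annotated end were not searched, so a hairpin of these 21 genes may lie beyond a short model, and this group describes the annotation. The poly(A) signal AATAAA stood within the last 40 bases of 10 of the 23 extended models (43.5%), of 0 of the 23 models that end near the hairpin and of 3 of the 21 without one. Of all 58616 protein-coding transcripts, 39.4% had it there.

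Promoters are shown because most members were higher together in cycling cells. Of the 66 members matched to 1 RefSeq gene, 61 had a promoter sequence, from 250 bases before to 50 bases after the start (RefSeq, GRCm38.p6), and 4 motifs were searched on both strands. CCAAT was in 85.3% of the members' promoters, against 41.1% of 27025 genes. TATAAA was in 57.4% against 15.7%, the octamer ATTTGCAT in 23.0% against 1.97%, and AAACACA, known from H1 promoters, in 14.8% against 8.22%. By class, AAACACA was in 5 of 6 H1 promoters, the octamer in 7 of 17 H2A and 7 of 16 H2B promoters and in 0 of the other classes, and CCAAT in 3 of 12 H4 promoters and in all of the H1, H2A, H2B and H3 promoters. Some H2A and H2B genes, such as Hist1h2ae and Hist1h2bg, start close to each other on opposite strands. Their promoter stretches can overlap, so 1 copy of a motif may be counted for both genes. The last 150 bases before the start are given for 3 members whose levels are described below, with the motifs in capitals. In order, they are Hist1h1c at chr13:23738657-23738806 (plus strand), Hist1h1b at chr13:21780626-21780775 (minus strand) and Hist1h4i at chr13:22041363-22041512 (minus strand).
Hist1h1c: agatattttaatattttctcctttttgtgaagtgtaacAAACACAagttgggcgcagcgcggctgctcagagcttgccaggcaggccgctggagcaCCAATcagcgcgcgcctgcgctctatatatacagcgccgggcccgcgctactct
Hist1h1b: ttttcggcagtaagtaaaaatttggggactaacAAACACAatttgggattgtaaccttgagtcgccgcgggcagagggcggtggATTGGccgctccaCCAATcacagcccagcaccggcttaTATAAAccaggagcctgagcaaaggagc
Hist1h4i: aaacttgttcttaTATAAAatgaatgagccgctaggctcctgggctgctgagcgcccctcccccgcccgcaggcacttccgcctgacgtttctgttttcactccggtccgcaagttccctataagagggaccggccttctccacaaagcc

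Both H1 stretches hold AAACACA and CCAAT. The stretch of Hist1h1b also holds TATAAA, and CCAAT on the other strand (ATTGG). That of Hist1h4i holds TATAAA and no CCAAT.

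UMIs were found for 64 members, 565910 in all. The 3 members at 0 were Hist1h2aa and Hist1h2ba, known as testis variants of H2A and H2B, and Hist1h4m. A further 3 had fewer than 10 UMIs: Hist1h1t, the testis variant of H1, with 6, Hist2h2aa2 with 4 and Hist1h2bq with 2. The level was uneven: the 12 highest members held 80.9% of the members' UMIs, and Hist1h2ap alone 33.3%. By class, H2A held 49.7% and H1 26.4%, followed by H3 with 9.18%, H4 with 8.35% and H2B with 6.44%. The p-values below rest only on these 4 mice. Between PM and vehicle they measure the spread between mice of a group. With the mouse as a block they measure how the difference between states varies from mouse to mouse. A UMI counts a molecule and is not scaled by length, but since capture rests on poly(A), these shares describe the libraries and not the histone mRNA of the cells.

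In cells of every type together, the members summed to 1321 and 2323 CPM (UMIs of a gene per 1000000 UMIs of the same cells) under vehicle and to 1762 and 1361 under PM. The second vehicle mouse was the highest, and the groups overlapped. Hist1h2ap stood at 454 and 812 CPM under vehicle and 581 and 408 under PM. Reads of near-identical paralogs cannot always be assigned, so values of single members of 1 class are uncertain to that extent. Overlapping models add to this: Hist1h1e and Hist1h2be lie on the same strand and share bases, as do Hist3h2a and Trim17, and most H2A members overlap a small antisense miRNA model.

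Most members were found almost entirely in cycling cells. Cycling cells held 53.4% to 59.7% of a library's UMIs but 84.1% to 91.6% of its histone UMIs. Of 59 members with at least 20 UMIs in each library, 38 had over 90% of their UMIs in cycling cells, averaged over the libraries. The H2A gene Hist1h2af had the most, 99.6%, Hist1h1b, another H1 variant, 98.7%. At the other end were 6 members under 60%: Hist2h3c2 (39.95%), Hist1h1c (42.5%), Hist1h4i (44.2%), Hist2h3c1 (48.9%), the H2B gene Hist1h2bc (51.9%) and Hist3h2a (56.7%). Models of 5 of these 6 were extended, and that of Hist1h2bc has several exons and no hairpin.

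Cycling and non-cycling cells of the same mouse were then compared within each cell type, with UMIs summed per mouse and state, edgeR's quasi-likelihood test and the mouse as a block. A call needed an absolute log2 fold change over 0.5 and, after Benjamini-Hochberg adjustment over all genes tested, a p under 0.05. The split used Mki67 and Top2a, which go with other cell cycle genes, so the direction of cell cycle genes in it is in part built in. States can also differ in their mix of clusters. In neutrophils, clusters 6 and 13, with Fcnb, Chil3 and Camp among their top genes, had 99.8% and 89.4% cycling cells. Clusters 0, 1, 3, 5 and 12 had 0.198% to 0.761%. The part of this mix in the ratios below was not tested. A gene could pass the filter on low counts through its cycling cells alone. A member near 0 in non-cycling cells could then only come out higher in cycling cells, which bears on the counts and ratios below. Over 9 cell types with enough cells in both states, 278 tests of members gave 214 calls higher and 13 lower in cycling cells. Of all gene tests in these cell types, 20.5% were called higher and 20.4% lower.

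In neutrophils, 48 of 57 tested members were called higher in cycling cells, where 33.2% of all genes were, and 5 were called lower, where 32.2% of all genes were. In the PM comparison of non-cycling neutrophils alone, 27 members passed the filter. The median log2 ratio of the tested members was 4.44 and that of all genes -0.01. Hist1h2ap was at 914 and 1546 CPM in cycling neutrophils of the vehicle mice and at 1131 and 797 in those of the PM mice, against 10.9 and 14.8, and 18.3 and 12.5, in non-cycling ones. Each of the 4 mice thus showed the same direction, and the 2 states were far apart (log2 ratio 5.86 ± 0.15 SE, n = 4 mice, adjusted p = 4.91e-08). The largest ratios among well-expressed members were those of Hist1h2af, Hist1h2ab, another H2A gene, and Hist1h3c, at log2 9.18, 7.71 and 7.48. Hist1h2af had 0, 0, 4 and 1 UMIs in the non-cycling neutrophils of the 4 mice, so its fitted ratio depends on the prior count, and so does that of Hist1h4k, which had 0 in all 4.

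Hist1h1c and Hist1h4i behaved differently. Hist1h1c was at 140 and 168 CPM in cycling neutrophils of the vehicle mice and 146 and 206 in those of the PM mice. In non-cycling neutrophils it was at 125 and 176 under vehicle and 222 and 305 under PM. Its levels in the 2 states overlapped over all mice, and it was called lower in cycling cells (log2 ratio -0.67 ± 0.13 SE, n = 4 mice, adjusted p = 0.0026). Hist1h4i was at 23.0, 20.6, 24.3 and 24.3 CPM in cycling neutrophils and at 33.0, 30.6, 62.6 and 56.7 in non-cycling ones, in the same order of mice. It was lower in cycling than in non-cycling cells of every mouse (log2 ratio -1.33 ± 0.15 SE, n = 4 mice, adjusted p = 6.99e-05). The other members called lower were Hist2h3c2 at -1.72, Hist1h2bc at -1.05 and Hist2h3c1 at -0.78. The fitted ratio includes TMM scaling between the 2 states. In CPM, without that scaling, Hist1h1c was higher in cycling than in non-cycling cells of the first vehicle mouse and lower in the other 3 mice. These ratios also average over vehicle and PM mice. For Hist1h1c, Hist1h4i and Hist1h2bc the PM effect differed between the states, as described below.

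**Figure D1:**
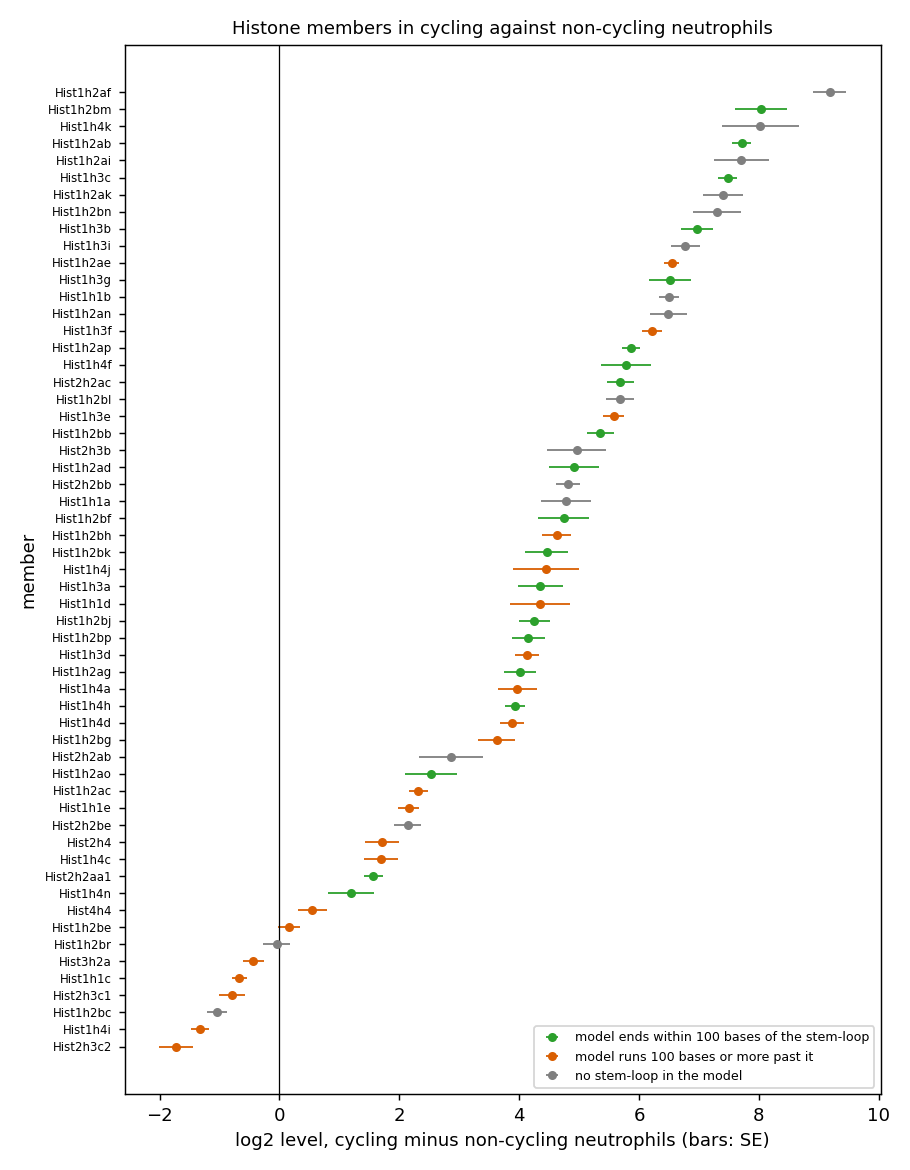
Log2 ratio of each of the 57 tested members in cycling over non-cycling neutrophils of the same mouse (x axis; edgeR estimate, bars are standard errors, n = 4 mice), sorted by ratio, with 1 member per row on the y axis and the color giving the end of the gene model relative to the stem-loop. The 20 members whose model ends near the stem-loop lie between 1.20 and 8.04, while extended members reach down to -1.72.

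The ratio went with the end of the gene model. In neutrophils, all 20 tested members whose model ends within 100 bases of the hairpin were called higher in cycling cells, with a median log2 ratio of 4.83 and a range of 1.20 to 8.04. Of 21 extended members, 14 were called higher and 4 lower, the median was 2.32, the range -1.72 to 6.55, and 7 were under 1. Members with no hairpin in the model had a median of 6.08, with 14 of 16 called higher and 1, Hist1h2bc, lower. In all 9 cell types the median was higher for near-ending than for extended members. It was 4.56 for 16 near-ending, 1.65 for 20 extended and 4.35 for 14 members without a hairpin in mono&prog, and 3.37, 1.47 and 2.75 in HSPC. In the same order it was 4.52, 1.73 and 2.93 in B cells, 5.01, 2.17 and 5.92 in DC, and 4.59, 2.13 and 4.06 in eosinophil/basophil progenitors. The gap was smaller in megakaryocytes and platelets (1.90, 0.97 and 1.22) and in plasma cells (2.94, 1.497 and 1.44), and smallest in erythroid&prog (1.95, 1.53 and 2.01). These are descriptions over members that share loci and sequence, with no test, and extended models also give a 3′ library more exonic bases to count, a share that was not tested.

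The other cell types had the same direction for most members. In mono&prog, 43 of 50 tested members were called higher in cycling cells (21.2% of all genes) and 0 lower by edgeR or DESeq2, with 1 at an unadjusted p under 0.05 in that direction. In HSPC, 30 of 44 were called higher (16.5% of all genes) and in B cells 20 of 23 (24.7%). The counts were 20 of 24 in DC (17.7%), 16 of 18 in eosinophil/basophil progenitors (19.8%) and 14 of 25 in erythroid&prog (20.8%). They were 12 of 20 in megakaryocytes and platelets (6.74%) and 11 of 17 in plasma cells (18.7%). Plasma cells here come from clusters that differ in cycling, and which of them are myeloma cells was not tested. The paper took every plasma cell cluster it found as neoplastic, from inferred copy number. Cluster 28, with Rhox5 and Afp among its top genes, had 84.8% cycling cells. Cluster 26, with Igha and Jchain, had 11.6%. The part of these clusters in the plasma cell values was not tested. Outside neutrophils, 8 calls were lower in cycling cells, where 18.5% of all gene tests were.

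The level of a member also differed among cell types. Hist1h2ap averaged 404 CPM over the 4 mice in cycling plasma cells, its lowest level, and 1193 in cycling mono&prog, its highest. Hist1h1b averaged 52.0 in cycling plasma cells and 405 in cycling B cells. Hist1h1c averaged 43.8 in cycling plasma cells and 291 in cycling eosinophil/basophil progenitors, and in non-cycling cells 53.4 in T cells (with NK cells) and 398 in eosinophil/basophil progenitors. Hist3h2ba, an H2B gene on chromosome 11, was unlike them: it averaged 0.88 in cycling HSPC and 147 in cycling plasma cells. Plasma cells were thus the lowest of the 10 cycling cell types for the first 3 members and the highest for the last. A low level there was not particular to the members. Replication-independent histone variants, described below, summed to 3301, 3698, 3960 and 3227 CPM in cycling plasma cells, also lower than in every other cycling cell type. The part of other RNA of plasma cells in these levels was not tested.

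PM was compared with vehicle in cycling cells first, with 2 mice per group and the condition as the only term. The summed members were at 2278 and 3814 CPM in cycling neutrophils of the vehicle mice and at 3000 and 2250 in those of the PM mice, and the groups overlapped. The log2 ratio was -0.21, and 0.205 without the second vehicle mouse. In cycling mono&prog the 4 values were 2597, 5190, 3452 and 2908, in the same order, and in cycling plasma cells 1010, 2345, 1247 and 980. The second vehicle mouse was the highest of the 4 in all 10 cell types, and the log2 ratio of PM to vehicle was below 0 in each. Without that mouse it was above 0 in 5 (neutrophils, mono&prog 0.292, DC 0.445, plasma cells 0.14 and cluster 15 0.0446) and below 0 in the other 5 (B cells -0.291, megakaryocytes and platelets -0.273, eosinophil/basophil progenitors -0.113, erythroid&prog -0.0417 and HSPC -0.0142). In B cells, eosinophil/basophil progenitors and megakaryocytes and platelets both PM mice also lay below the first vehicle mouse. S phase genes other than histones summed to 2352, 2330, 2057 and 2308 CPM in cycling neutrophils, and G2/M genes to 4249, 3938, 3901 and 4338. The S phase sum was lower in the second than in the first vehicle mouse in 5 of the 10 cell types and higher in the other 5, such as eosinophil/basophil progenitors (2080 and 3215) and plasma cells (1607 and 2313). The part of S phase in the members' level was not tested.

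**Figure D2:**
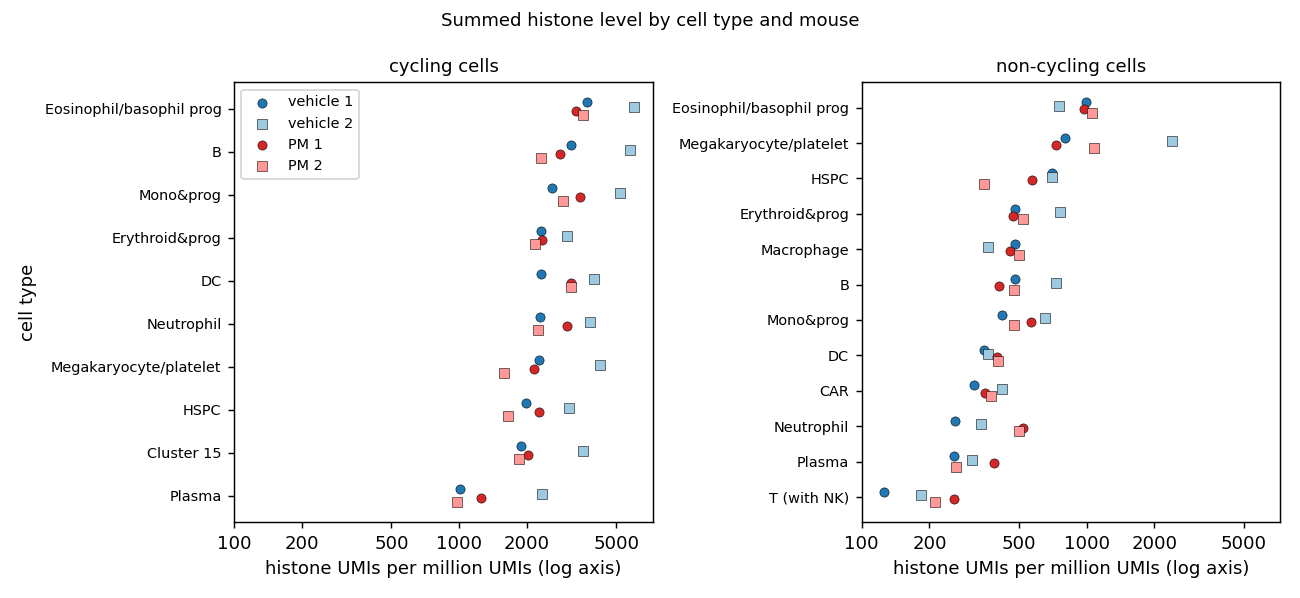
Summed level of the 67 members in CPM (x axis, log scale) in each cell type (y axis), cycling cells on the left and non-cycling cells on the right, with 1 point per mouse. The second vehicle mouse is the highest in all 10 cycling cell types, and in non-cycling neutrophils both PM mice (518 and 503) lie above both vehicle mice (259 and 340).

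Few members were called in cycling cells. Of 439 tests of members over 10 cell types, 363 had a negative log2 fold change and 76 a positive one, but 3 were called lower and 1 higher, and 57 and 7 had an unadjusted p under 0.05 in these directions. In 8 of the 10 cell types 0 members were called, where 0.38% of all gene tests were. There edgeR gave 4 higher and 38 lower at an unadjusted p under 0.05, and DESeq2 called 1 lower. The median of the members was below 0 in 9 of 10 cell types, from -1.002 in plasma cells to 0.02 in DC, while that of all genes was between -0.01 and 0.02. The calls varied with the vehicle mice: with the second left out they were 8 higher and 3 lower, and with the first left out 0 higher and 59 lower. The remaining vehicle mouse is in each case assumed to vary like the PM mice. For counts at an unadjusted p and for fits with a mouse left out, here and below, the share over all genes is not given. Whether such counts are particular to the members cannot be told from them.

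In cycling B cells, of which the 4 mice had 28, 122, 78 and 68, 3 of 33 tested members were called lower in PM (1.49% of all genes), and all 33 were negative. Hist1h1d, an H1 variant, was at 187 and 176 CPM under vehicle and 78.9 and 92.3 under PM (log2 fold change -1.04 ± 0.22 SE, adjusted p = 0.0176). Hist3h2a was at 88.8 and 91.3 against 19.5 and 46.8 (-1.44 ± 0.33 SE, adjusted p = 0.0233), and Hist3h2ba at 64.1 and 77.5 against 24.9 and 33.6 (-1.31 ± 0.30 SE, adjusted p = 0.0233). For each of the 3 the vehicle mice were close to each other and above both PM mice, unlike the members' sum in these cells, which was 3127 and 5740 under vehicle and 2811 and 2301 under PM. Without the first vehicle mouse, which gave 28 of these cells, and likewise without the second, 0 members were called in them. Without the first PM mouse the adjusted p was 0.0825 for Hist1h1d, 0.17 for Hist3h2a and 0.128 for Hist3h2ba, while 7 other members were called lower. DESeq2 called Hist1h1d (adjusted p = 0.0467) and gave no adjusted p for the other 2. Neutrophil secondary granule genes, a sign of RNA from other cells, summed to 9046 and 10066 CPM in cycling B cells of the vehicle mice and to 8316 and 2933 in those of the PM mice, and their part in these calls was not tested.

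In cycling neutrophils the 1 called member of 58 tested was Hist3h2ba, at 0.384 and 0.207 CPM under vehicle and 3.09 and 1.63 under PM, or 6, 2, 43 and 15 UMIs (2.86 ± 0.57 SE, adjusted p = 0.0322, with 2.5% of all genes called higher). It was low in all 4 mice, and both PM mice lay above both vehicle mice. It passed the filter on low counts, near 0.847 CPM in 2 mice, only through the PM mice, so a tested value had to be higher there. Its adjusted p was 0.0489 without the second vehicle mouse, 0.0966 without the first and 0.235 without the first PM mouse. Hist1h2ap, at -0.42, and Hist1h1b, at -0.23, were not called there. Hist1h1c, at 0.10, and Hist1h4i, at 0.08, were not called either.

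In non-cycling neutrophils the members' sum was higher in PM. It was 259 and 340 CPM under vehicle and 518 and 503 under PM, higher in PM in 4 of 4 pairs of mice (log2 ratio 0.77). The mice did not overlap, and the PM mice were close to each other. Non-cycling neutrophils were by far the largest group of cells, 3757 to 6189 per mouse. Without Hist1h1c and Hist1h4i the sum was 100 and 134 against 234 and 141, still higher in PM in all 4 pairs, but the first PM mouse then stood well above the second.

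Of 27 members tested in non-cycling neutrophils, 4 were called higher in PM and 0 lower by edgeR (5.45% of all genes were called higher), and 26 had a positive log2 fold change. DESeq2 called the same 4 members. At an unadjusted p under 0.05, edgeR gave 10 members higher and 0 lower. The median was 0.58, against 0.01 for all genes. The 27 were those that passed the filter on low counts, so neither value stands for all 67.

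Hist1h1c was at 125 and 176 CPM under vehicle and 222 and 305 under PM (log2 fold change 0.71 ± 0.18 SE, adjusted p = 0.0402). Hist1h4i was at 33.0 and 30.6 against 62.6 and 56.7 (0.81 ± 0.13 SE, adjusted p = 0.00676). For both genes the groups did not overlap, and mice of 1 group were closer to each other for Hist1h4i than for Hist1h1c. The H2B gene Hist1h2br was at 5.07 and 6.79 against 12.7 and 10.4 (0.89 ± 0.20 SE, adjusted p = 0.0244). Hist4h4 was at 1.11 and 1.01 against 5.06 and 2.74, from 33, 20, 131 and 60 UMIs (1.79 ± 0.37 SE, adjusted p = 0.0194). Both PM mice were again above both vehicle mice, and for Hist4h4 the first PM mouse was the highest. Hist1h4i was called with any 1 mouse left out. The adjusted p of Hist1h1c was 0.104 without the first vehicle mouse and 0.119 without the second PM mouse, that of Hist4h4 was 0.0567 without the first vehicle mouse and 0.113 without the first PM mouse, and that of Hist1h2br was 0.113 without the first PM mouse. With 1 mouse left out, the number of members called in these cells varied, and without the first PM mouse the calls were not all in 1 direction. Of the 4, the models of Hist1h1c, Hist1h4i and Hist4h4 are extended past the hairpins printed above, and that of Hist1h2br has several exons and ends with AATAAA nearby.

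**Figure D3:**
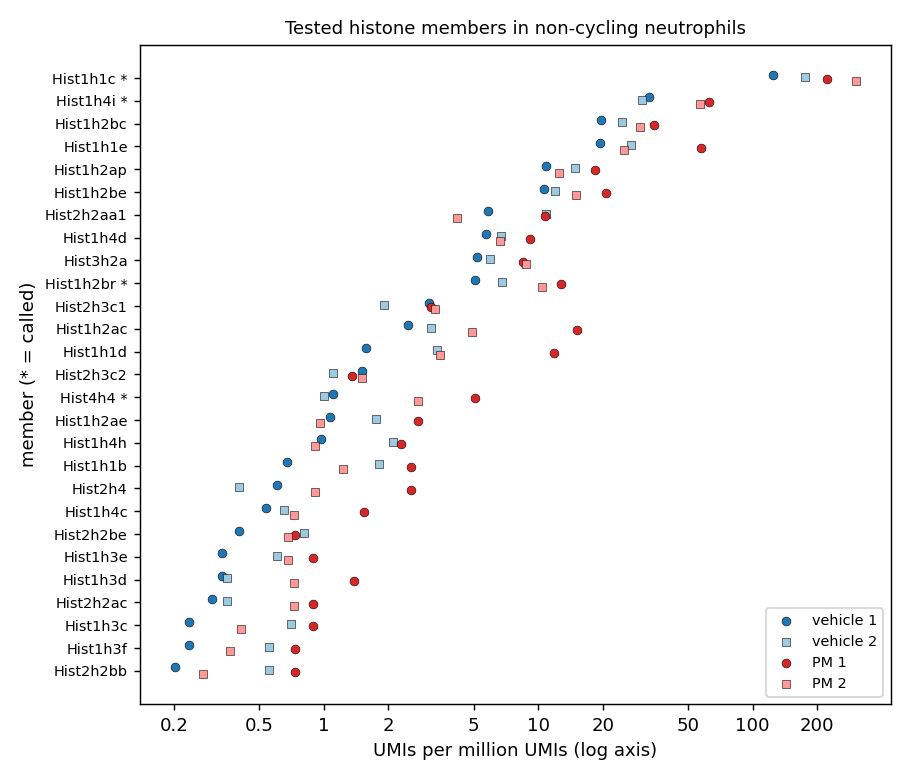
Level of each of the 27 tested members in non-cycling neutrophils in CPM (x axis, log scale), with 1 row per member and 1 point per mouse. Stars mark the 4 members called higher in PM, for each of which both PM mice lie to the right of both vehicle mice, as for Hist1h4i at 62.6 and 56.7 against 33.0 and 30.6.

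Members that make up most of the cycling signal did not pass the test in these cells. Hist1h2ap was at 10.9 and 14.8 CPM under vehicle and 18.3 and 12.5 under PM (0.20, adjusted p = 0.626), so the groups overlapped. Hist1h2ac, an H2A gene, was at 2.48 and 3.17 against 15.2 and 4.93 (1.78, adjusted p = 0.226), with the first PM mouse far above the others. Hist1h1d showed the same single high mouse, at 1.58 and 3.37 against 11.9 and 3.47 (1.62, adjusted p = 0.344). Near the threshold were Hist1h2bc (0.46, adjusted p = 0.0802), Hist3h2a (0.55, adjusted p = 0.0805) and Hist1h2be, an H2B gene (0.58, adjusted p = 0.0924). By the end of the model, the extended members summed to 213 and 274 CPM under vehicle and to 429 and 438 under PM. Members ending near the hairpin summed to 19.7 and 30.7 against 36.6 and 20.8, and there the groups overlapped. Members with no hairpin in the model summed to 26.4 and 35.3 against 52.9 and 43.4, higher in PM in all 4 pairs of mice. By class, H1 and H4 had summed log2 ratios of 0.83 and 0.87, H2B of 0.65, H3 of 0.54 and H2A of 0.49. Called members weigh heavily in these sums. Hist1h1c made up most of the H1 sum, 147 and 208 CPM under vehicle against 294 and 335 under PM. Hist1h4i made up most of the H4 sum, 42.4 and 42.0 against 84.9 and 69.3. Together they also made up most of the extended sum, so these sums largely repeat their calls.

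The mix of neutrophils differed between the groups, and the members were therefore also taken within clusters. Cluster 5, marked by Il1b and Cxcl2, had 889 and 694 cells under vehicle and 201 and 232 under PM, and of the clusters compared it had the highest level of Hist1h4i in non-cycling cells of all 4 mice and of Hist1h1c in 3 of 4. Cluster 12, marked by Ifit1 and Rsad2, went the other way, with 165 and 76 cells under vehicle and 632 and 386 under PM. Its non-cycling cells had Hist1h4i at 70.7 and 62.9 CPM against 146 and 158, above the level over all non-cycling neutrophils in every mouse. The part of this mix in the pooled values was not tested. In clusters 0, 1, 2, 3, 5 and 12 the members' sum in non-cycling cells was higher in PM in 4 of 4 pairs of mice, for example 163 and 180 against 410 and 367 CPM in cluster 0, the largest. In cluster 13, most of whose cells were cycling, it was higher in 2 of 4 pairs. Hist1h1c was called higher in clusters 0 and 2, and in cluster 0 it was at 91.0 and 89.0 against 194 and 259 (1.24 ± 0.13 SE, adjusted p = 2.96e-04). Hist1h4i was called in clusters 1, 3 and 12, and in cluster 3 it was at 71.0 and 66.6 against 202 and 166 (1.41 ± 0.17 SE, adjusted p = 0.00569). Within cluster 0 the mice of a group were close together and the groups far apart for Hist1h1c, and within cluster 3 the same held for Hist1h4i. Of the members tested, 4 of 15 were called higher in cluster 0 (4.71% of all genes), 3 of 16 in cluster 1 (2.99%), 2 of 16 in cluster 2 (4.08%) and 4 of 13 in cluster 3 (3.45%). The counts were 0 of 10 in cluster 5 (0.114%), 1 of 9 in cluster 12 (1.12%) and 0 of 2 in cluster 13 (0.133%). By edgeR 4 of the 10 in cluster 5 and 0 of the 2 in cluster 13 were higher at an unadjusted p under 0.05, DESeq2 was not run within clusters, and 0 members were called lower in any of the 7.

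**Figure D4:**
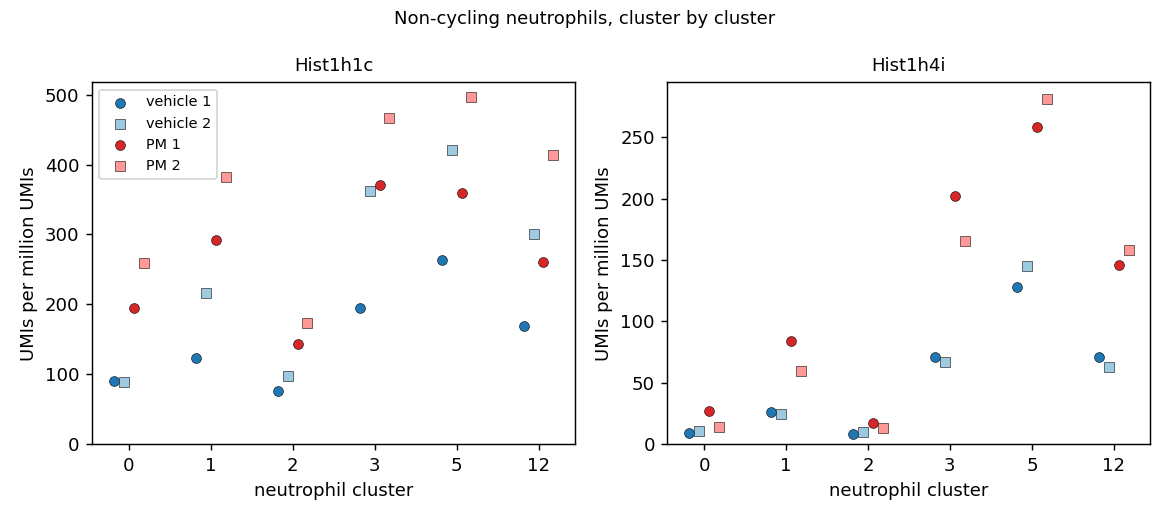
Level of Hist1h1c (left) and Hist1h4i (right) in CPM (y axis, from 0) in the non-cycling cells of 6 neutrophil clusters (x axis), with 1 point per mouse; cluster 13, which is mostly cycling, is not drawn. Hist1h4i is higher in both PM mice than in both vehicle mice in each of the 6 clusters, and cluster 5 has the highest level of Hist1h4i in every mouse.

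Genes that mark stages of neutrophils were summed in the same cells. Primary granule genes, which mark early neutrophil stages, summed to 80.2 and 74.9 CPM in non-cycling neutrophils of the vehicle mice and to 238 and 151 in those of the PM mice, and 5 of 5 tested were positive with 0 called. Their sum was also higher in PM in 4 of 4 pairs of mice in non-cycling T cells (with NK cells), at 100 and 75.4 against 200 and 128. The same held in non-cycling B cells, DC, macrophages and CAR cells, while plasma cells had 3 of 4 pairs and eosinophil/basophil progenitors 2 of 4. The G2/M list summed to 49.0 and 56.0 against 83.9 and 64.5. The S phase list summed to 256 and 244 against 235 and 261 but had a per-gene median of 0.52, with 23 of 26 genes positive and 1 called. Late neutrophil genes summed to 28061 and 26780 against 28437 and 24954, with a per-gene median of -0.33, 1 of 8 genes positive and 0 called. The part of these stages, or of RNA from other cells, in these sums and in the members' difference was not tested.

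T cells (with NK cells), nearly all of them non-cycling, had a members' sum of 126 and 184 CPM under vehicle and 258 and 212 under PM. It was higher in PM in all 4 pairs of mice, and the 8 tested members were all positive (median 0.58), but 0 were called by edgeR or DESeq2, and 2 had an unadjusted p under 0.05 by edgeR. T cells (with NK cells) were 1 of 8 non-cycling cell types with 0 members called, where 0.751% of all gene tests were. Over these 8, edgeR gave 6 higher and 4 lower of 75 tests at an unadjusted p under 0.05, and DESeq2 called 0. In this design of 2 against 2 mice, an exact permutation test of a single value cannot give a p under 0.333, so these sums carry no p.

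Hist1h1c was the member called in most non-cycling cell types, and not in 1 direction. In non-cycling HSPC it was at 133 and 198 CPM under vehicle and 71.3 and 52.2 under PM (-1.29 ± 0.26 SE, adjusted p = 0.0104), the only call among 9 tested members, with 0.341% of all genes called lower. The groups did not overlap, but DESeq2 did not call it (adjusted p = 0.123), and without the second vehicle mouse edgeR did not either (adjusted p = 0.234). Within cluster 21, the HSPC cluster that could be fitted alone, it was not called (-1.42 ± 0.31 SE, adjusted p = 0.219), at 137.5 and 227 against 79.97 and 48.5. HSPC of the groups differed otherwise too: primary granule genes summed to 2811 and 6501 CPM under vehicle and 19355 and 15408 under PM, and genes of handling stress to 9742 and 8203 against 3454 and 6896. Their part in the fall of Hist1h1c was not tested.

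In non-cycling erythroid&prog, of which the mice had 35, 73, 78 and 123, 4 members passed the filter on low counts, which lay near 52.8 CPM in 2 mice, and were called. Hist1h1c was higher in PM, at 34.4 and 72.5 CPM against 172 and 220, from 3, 11, 39 and 79 UMIs (1.73 ± 0.44 SE, adjusted p = 0.0149, with 3.91% of all genes called higher). Hist1h2ap was lower, at 115 and 178 against 39.7 and 52.9 from 10, 27, 9 and 19 UMIs (-1.72 ± 0.42 SE, adjusted p = 0.0115, with 7.7% of all genes called lower). Each group was apart from the other for both members, from few UMIs. The other 2 members, lower as well, were Hist1h1b at -2.06 and the H2A gene Hist1h2ae at -2.58, with 2 to 17 UMIs per mouse. Hist1h1b and Hist1h2ae passed the filter only through the vehicle mice, and of the PM mice only the second reached it for Hist1h2ap, so the filter bears on these 3 calls. With no filter their adjusted p was 0.0694, 0.0552 and 0.0534. For Hist1h1c both PM mice reached the filter, but of the vehicle mice only the second did, so the filter bears on that call too. In the same cells S phase genes summed to 2204 and 3845 against 1247 and 1946 CPM, secondary granule genes to 31102 and 22197 against 48855 and 49930 and haemoglobin genes to 289190 and 183130 against 173600 and 138420, and the part of this mix in the calls was not tested. DESeq2 called 0 of the 4, with adjusted p-values of 0.0832 for Hist1h1c and 0.146 for Hist1h2ap and none given for the other 2. With edgeR, Hist1h1c was not called without the first PM mouse (adjusted p = 0.114) or the second (0.164), Hist1h1b and Hist1h2ap not without either PM mouse or the second vehicle mouse, and Hist1h2ae not without either PM mouse or the first vehicle mouse.

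In non-cycling B cells, Hist3h2a alone of 17 tested members was called lower in PM (2.4% of all genes), at 89.8 and 73.3 CPM against 26.4 and 47.4 (-1.15 ± 0.24 SE, adjusted p = 0.0118). DESeq2 gave it an adjusted p of 0.0688, and edgeR gave 0.066 without the second vehicle mouse and 0.149 without the first PM mouse. Neutrophil secondary granule genes summed to 4583 and 3759 CPM under vehicle against 2589 and 2942 in these cells, with 3 of 7 called lower, and genes of handling stress to 4449 and 4637 against 2960 and 3861, with 2 of 15 called lower. Their part in this call was not tested. The direction was that of cycling B cells, which come from the same mice. It was called in cluster 11 of these cells, at 138 and 97.5 against 35.9 and 53.5 (-1.27), and not in cluster 7, at 39.1 and 28.0 against 20.5 and 41.3 (-0.16). Cluster 7 held 118 and 270 cells under vehicle and 926 and 415 under PM, and cluster 11 held 91 and 568 against 392 and 251. The difference between the clusters, and the part of this mix in the call, were not tested. The model of Hist3h2a overlaps that of Trim17 on the same strand, so reads of either gene may be involved.

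Whether the PM effect differed between cycling and non-cycling cells was tested as an interaction with the mouse as a block, over 9 cell types and 336 member tests. In neutrophils it was called for 8 of 59 members, all with a more negative effect in cycling cells (2.07% of all genes were called in this direction). For Hist1h1c the difference was -0.59 ± 0.09 SE on the log2 scale (adjusted p = 7.19e-05), the fold changes being 0.10 in cycling and 0.71 in non-cycling neutrophils. For Hist1h4i it was -0.70 ± 0.12 SE (adjusted p = 4.08e-04), with 0.08 and 0.81. Hist1h2br, Hist1h2bc and Hist1h2ap had differences of -1.10, -0.78 and -0.54, and for them the fold change was negative in cycling and positive in non-cycling cells. For Hist1h2ap the groups overlapped in each state, and its difference ran from -0.767 to -0.305 over the alternatives. DESeq2 called 6 members in this direction. Hist1h2ac at -0.73 passed the test in neither state alone, and Hist2h2ac at -1.40 and Hist1h1a at -3.32 rested on few non-cycling UMIs, for Hist1h1a on 1, 0, 12 and 5. Cycling and non-cycling neutrophils also differ in their mix of clusters, and its part in these differences was not tested.

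**Figure D5:**
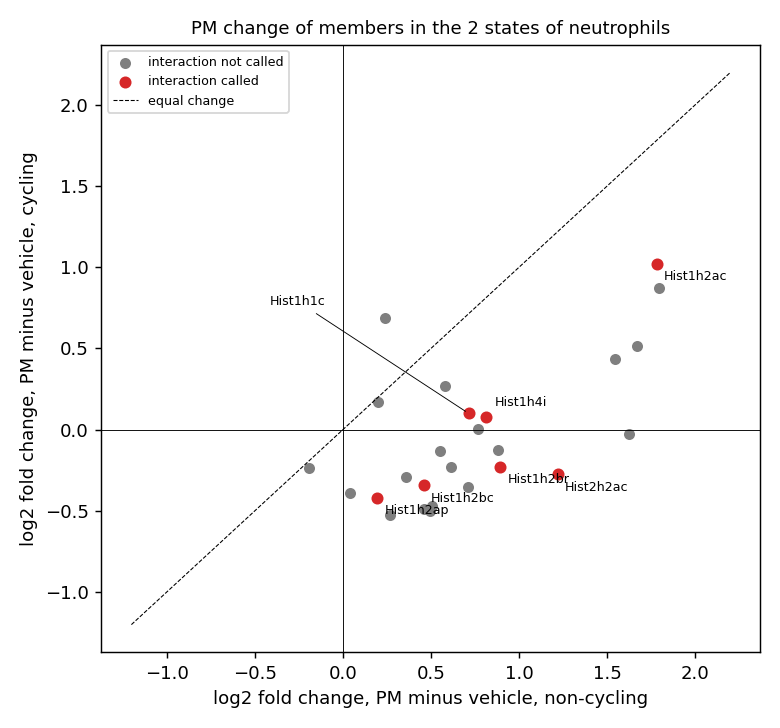
Log2 fold change of PM over vehicle in non-cycling (x axis) and cycling (y axis) neutrophils for the members tested in both states, with 1 point per member, red where the interaction was called, and the dashed line marking equal change. Of the red points, Hist1h1c (0.71 and 0.10) and Hist1h4i (0.81 and 0.08) lie below the line near 0 on the y axis, and Hist1h1a is not drawn because it was not tested in non-cycling cells alone.

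The interaction was called for Hist1h1c in 2 other cell types, with opposite signs. In HSPC it was 1.20 ± 0.24 SE (adjusted p = 8.36e-04, with 0.692% of all genes called in this direction), and in erythroid&prog -2.36 ± 0.50 SE (adjusted p = 0.00307, with 0.113%). DESeq2 called 1 member in HSPC and 0 in erythroid&prog. Over the alternatives the difference in erythroid&prog ran from -2.94 to -1.89, and it rested on the few non-cycling UMIs given above. In cycling cells of these types Hist1h1c was not called: its levels were 54.7 and 80.5 against 62.6 and 67.9 CPM in HSPC, and 71.6 and 67.0 against 52.0 and 64.8 in erythroid&prog. The HSPC values overlapped, while both PM mice were slightly under both vehicle mice in erythroid&prog. HSPC join cluster 9, led by Elane and Mpo, with 95.1% cycling cells, and cluster 21, led by Hlf and Cd34, with 57.4%. Cycling and non-cycling HSPC thus differ in their mix of clusters, and its part in the HSPC difference was not tested. Erythroid&prog join cluster 17, with 99.8% cycling cells, cluster 22, with 52.2%, and cluster 30, with 21.4%. The part of that mix in the erythroid&prog difference was not tested either. In the other 6 cell types 0 members were called, where 0.316% of all gene tests were. There edgeR gave 1 positive and 22 negative differences of 195 at an unadjusted p under 0.05, and DESeq2 called 0.

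Genes of other histones and of the histone supply were described from lists chosen by function. Among 11 replication-independent histone variants, 2 of 101 tests in cycling cells were called higher in PM and 1 lower, and 1 of 100 higher and 2 lower in non-cycling cells. H1f0, the linker variant of resting and differentiated cells, was the higher one in each state of neutrophils, at 53.1 and 64.2 CPM against 208 and 220 in cycling ones (1.79 ± 0.12 SE, adjusted p = 1.46e-04) and at 11.1 and 12.6 against 39.8 and 39.95 in non-cycling ones (1.66 ± 0.12 SE, adjusted p = 1.73e-04). Its groups were far apart and the mice of each group close together, in contrast to the H1 members. It was also called higher in cycling HSPC (0.89), where 35 of 11614 genes were. H2afv, an H2A.Z protein, was called lower in B cells, at 1194 and 1209 against 556 and 617 in cycling ones, and Cenpa, the centromeric H3, in non-cycling erythroid&prog (-1.18). Of all genes, 2.5% were called higher in cycling and 5.45% in non-cycling neutrophils. Those called lower were 1.49% in cycling B cells, 2.4% in non-cycling B cells and 7.7% in non-cycling erythroid&prog.

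Among 22 genes of histone gene transcription and mRNA processing, 0 of 202 tests were called in cycling cells by edgeR, with 3 higher and 15 lower at an unadjusted p under 0.05, and 1 of 167, Cpsf3, in non-cycling cells. Cpsf3 codes for the nuclease that cuts both stem-loop and polyadenylated pre-mRNAs. It was lower in non-cycling neutrophils of PM mice, at 26.9 and 28.7 CPM against 17.8 and 17.3 (-0.76 ± 0.12 SE, adjusted p = 0.00676). In these cells 215 of 11317 genes were called lower. Among 20 histone chaperones and assembly factors, 0 of 196 tests were called in cycling cells by edgeR, with 11 higher and 13 lower at an unadjusted p under 0.05. In non-cycling cells 3 of 178 were: Ssrp1 higher in neutrophils (0.52), Asf1a lower in B cells (-1.10) and Mcm2 lower in erythroid&prog (-1.48). In the same cells and directions 5.45%, 2.4% and 7.7% of all genes were called. For the 6 class I and IIb HDAC genes, the targets of PM, 1 of 53 tests was called in cycling cells. It was Hdac8, lower in cycling B cells, at 39.5 and 47.0 against 6.48 and 16.8 CPM (-1.94 ± 0.43 SE, adjusted p = 0.0221, with 1.49% of all genes called lower). These levels come from only 28, 122, 78 and 68 cells of the 4 mice, and the part of RNA from other cells in them was not tested. In non-cycling cells 0 of 41 tests were called by edgeR, with 0 higher and 1 lower at an unadjusted p under 0.05. In the state comparison these 4 lists had 49 of 86, 79 of 175, 101 of 172 and 21 of 41 tests called higher in cycling cells and 5, 2, 3 and 2 called lower, where 20.5% and 20.4% of all gene tests in the 9 cell types were. In the interaction, H1f0 was called in HSPC (1.13) and mono&prog (0.78) with a more positive effect in cycling cells. In this direction 0.692% of all genes were called in HSPC and 76 of 11210 in mono&prog. The H2A variant gene H2afz in HSPC (-0.71), the histone acetyltransferase gene Hat1 in neutrophils (-0.75) and Mcm2 in neutrophils (-0.98) had a more negative effect there. In that direction 290 of 11710 genes were called in HSPC and 2.07% of all genes in neutrophils.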

How the data were processed

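Total marrow of 4 tumor-bearing mice, 2 per group, was sequenced as 1 library each with 10x Chromium 3′ chemistry. The deposited values are raw UMI counts per gene and cell, filtered to cells and made by the authors with Cell Ranger 6.0.1, per the file headers and the study's methods. The methods name the GRCm38 reference, while the submitters' processing notes list GRCm39, so coordinates are those of GENCODE vM21 or RefSeq on GRCm38 for the same gene IDs or symbols and not of the counting. Labels and headers do not state whether strand was used.

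Cells were kept if they had 300 genes or more and no more than 20% mitochondrial UMIs. They were clustered with scanpy 1.11.5 (2500 variable genes, 30 principal components, 15 neighbors, leidenalg 0.10.2 at resolution 1, seed 1), giving 32 clusters, which were named from marker genes. Unnamed clusters other than cluster 15 held 0.939% to 2.57% of a library's kept cells and were left out. Doublet scores came from scanpy's Scrublet. The highest 0.8% per 1000 barcodes were marked, 6.59% to 11.1% of a library, and kept except in an alternative, since its own threshold marked 0% to 5.51%.

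UMIs were summed per library, cell type and state where every library had at least 20 cells. edgeR 4.0.16 (R 4.3.3, limma 3.58.1) was run with TMM, filterByExpr and robust quasi-likelihood fits over all genes, and the fits were tested on simulated data. Calls needed an adjusted p under 0.05 and an absolute log2 fold change over 0.5. Levels are CPM, UMIs per 1000000 UMIs of the same cells. DESeq2 1.42.0 was an alternative, and an adjusted p it did not give was left missing. The p-values measure the spread between mice that the labels list as separate samples or, with the mouse as a block, that of the state difference between them. The study's methods also sum counts per cell type, and its thresholds were used here.

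The members, marker genes and lists were chosen with earlier results of these data known. Members named were the 12 with the highest mean level, every member called in the PM comparison, the 3 largest and 3 smallest state ratios in neutrophils among those averaging 5 CPM or more, and every called gene of the first 4 lists. Others, such as Hist1h2ac, Hist1h1d, Hist1h2be and those at 0, were named after their values were seen.

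Replicate numbers 1 and 2 do not state a pairing. Deviations of same-numbered libraries from their group means correlated at -0.155 to 0.214 over cell types and states. Scaling, low-count filter, test, doublets, cell filter, cycling threshold, cell weighting, replicate block and left-out libraries were varied. Within-cluster fits and a crossed block were chosen after seeing the data.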

Additional observations from a re-analysis of the deposited data

Results flagged for a closer look

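The state-by-condition interaction flagged 10 results, each a difference between the PM effect in cycling and in non-cycling cells on the log2 scale, with edgeR's adjusted p over all genes. In neutrophils, where the effect was more negative in cycling cells for all 8, the differences were -0.594 ± 0.0897 SE for Hist1h1c (adjusted p = 7.19e-05), -0.704 ± 0.122 SE for Hist1h4i (adjusted p = 4.08e-04) and -1.10 ± 0.197 SE for Hist1h2br (adjusted p = 5.86e-04). They were -0.782 for Hist1h2bc (adjusted p = 6.69e-04), -0.537 for Hist1h2ap (adjusted p = 0.00976) and -0.735 for Hist1h2ac (adjusted p = 0.0142). Those of Hist2h2ac, -1.40 (adjusted p = 0.0406), and Hist1h1a, -3.32 (adjusted p = 0.0412), were nearest to the threshold and had the largest standard errors in neutrophils, 0.423 and 1.00. By DESeq2, 6 members were called in neutrophils.

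Hist1h1c was flagged in a further 2 cell types, with a difference of -2.36 ± 0.497 SE in erythroid&prog (adjusted p = 0.00307) and of 1.20 ± 0.244 SE in HSPC (adjusted p = 8.36e-04). DESeq2 called 0 members in erythroid&prog and 1 in HSPC. Groups of 2 mice are too small for a rule on single outlying mice.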

How the results depend on the processing

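The counts of calls in cycling cells depended most on the processing. PM against vehicle gave 4 calls over 10 cell types, and 43 with no filter on low counts, 12 with the crossed numbers as a block, 11 with cycling at 1 UMI, 9 with library size alone and 1 with doublets left out, where fewer cell types had enough cells. With 1 mouse left out the count was 10 to 59, the highest without the first vehicle mouse. In non-cycling cells the 10 calls were 4 with DESeq2 and 7 to 14 with 1 mouse left out. The 227 calls between states were 347 with no filter and 216 to 243 with 1 mouse left out, and the 10 interaction calls were 18 with no filter and 9 to 18 with 1 mouse left out, the most without the second PM or the first vehicle mouse. The cause of these shifts was not tested, except that no filter tests more genes. The share of all genes called under these alternatives is not given, so the shifts may not be particular to the members. With the replicate number as a block, cycling cells gave 8 calls and non-cycling cells 13. The numbers share no stated batch, and the crossed pairing was chosen after seeing the data because some correlations were under -0.1.

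Summed levels, as log2 ratios of PM to vehicle, moved by more than 1 SD in 8 cases. By the mean over cells they were -0.341 in non-cycling CAR cells (main -0.014), 0.123 in DC (main 0.169), -0.754 in erythroid&prog (main -0.322) and 0.412 in macrophages (main 0.181). With doublets left out they were 0.0294 in non-cycling DC and -0.142 in macrophages, and with cycling at 1 UMI 0.105 and -0.121. With 1 mouse left out, the ratio in cycling cells was -1.17 to -0.291 in B cells, -0.869 to 0.0446 in cluster 15, -0.342 to 0.445 in DC, -0.807 to -0.113 in eosinophil/basophil progenitors and -0.421 to -0.0417 in erythroid&prog. It was -1.18 to -0.273 in megakaryocytes and platelets, -0.707 to 0.292 in mono&prog, -0.539 to 0.205 in neutrophils, -0.647 to -0.0142 in HSPC and -1.07 to 0.14 in plasma cells. In non-cycling cells it was -0.732 to -0.118 in B cells, -0.209 to 0.211 in CAR cells, 0.0258 to 0.435 in eosinophil/basophil progenitors, -0.612 to 0.0415 in erythroid&prog and -1.01 to -0.294 in HSPC. It was -0.00436 to 0.395 in macrophages, -1.40 to 0.175 in megakaryocytes and platelets, -0.321 to 0.308 in mono&prog and 0.587 to 0.981 in neutrophils.

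The 4 calls in non-cycling neutrophils were 8 with library size alone and with no filter. Single named members kept their direction under every alternative that gave a value. Apart from left-out mice, 234 of their values also kept their side of the threshold and 39 did not. With 1 mouse left out these counts were 78 and 41. With 2 mice per group the spread rests on few mice, and few UMIs limit the non-cycling erythroid&prog and B cell results.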

Other observations

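The level of Hist1h4i in non-cycling megakaryocytes and platelets was 26.2 and 444 CPM under vehicle and 85.0 and 84.4 under PM, and that of Hist1h1c 173 and 784 against 122 and 411. The second vehicle mouse was far above the others for Hist1h4i, and neither gene was called.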
